A study of Mus musculus with 46 samples.

Results

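Of the 46 tumours in the series, 26 were removed on day -1, before any treatment, and 10 of those 26 held RNA of the keratin gene Krt5 above 10 CPM. Krt5 is a keratin of the basal keratinocytes of skin, and human mesotheliomas can make it too. The 2 groups compared here, Krt5-high (10 tumours) and Krt5-low (16 tumours), were chosen by this level alone, whatever the response label, and Krt5 itself is left out of the results. CPM stands for a gene's count divided by the sum of the tumour's column and multiplied by 1000000. Just inside the threshold CT24 held 14.9 CPM of Krt5 and just outside it CT3 held 4.59 CPM, and the Krt5-high tumours ran from 14.9 CPM to 192 CPM with a median of 32.3 CPM.

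All 26 were subcutaneous AB1-HA tumours, grown from 1 mesothelioma line that carries an influenza haemagglutinin gene, in male BALB/c mice aged 8 to 10 weeks. Each mouse carried a tumour on both sides. The tumour that was sequenced was excised on day 9, the mouse was given 200 mg/kg cyclophosphamide (CY) on day 10, and the tumour left behind gave the response label, complete responder (CR) or PR, which the paper calls progressor and the series text partial responder. The other 20 tumours were excised after CY, 10 on day 13 (day 3) and 10 on day 17 (day 7), and serve here as tumours that did not enter the choice of the 10. The labels do not say how much overlying skin was removed with a tumour.

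The outer layer of mouse skin is built by keratinocytes of several kinds. Basal cells make Krt14 beside Krt5. As they move outwards, suprabasal cells change to Krt1 and Krt10, and the outermost cells make filaggrin (Flg) and loricrin (Lor), the proteins of the cornified layer. Krt6a, Krt6b, Krt16 and Krt17 are keratins of hair follicles and of stressed or healing epidermis. The sebaceous gland, which hangs on the follicle, makes wax esters and long fatty acids, and Krt79 marks its duct. In bulk RNA, more cells of one type and more RNA per cell cannot be told apart.

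The response label was spread evenly over the groups, with 5 CR and 5 PR among the Krt5-high tumours and 8 CR and 8 PR among the Krt5-low tumours (p = 1, two-sided Fisher's exact test). Total counts were 12120000 ± 1150000 (SD, n = 10) and 12140000 ± 1120000 (SD, n = 16), which differed by less than the spread between tumours (p = 0.961, two-sided permutation test). The title number was not spread evenly. All 10 Krt5-high tumours had a number above 14, where only CT16 and CT20 were Krt5-low, and none of the 14 tumours numbered up to 14 was Krt5-high. What the number stands for is not given in the sources used here, so the comparison of the 2 groups over all genes and over the lists of other cells was also fitted with that split as a covariate.

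Promoter sequences of 4 skin genes are shown, because they stand for 2 patterns described below, and they were picked after their values were seen. Krt79 and Awat1, a wax ester synthase of the sebaceous gland, were above every Krt5-low tumour in all 10 Krt5-high tumours, and Krt10 and Lor were not. Each runs from 250 bases before to 50 bases after the annotated start, 5′ to 3′ on the gene's strand, in RefSeq's build GRCm38.p6. They lie at chr15:101940275-101940574 (minus strand), chrX:100571997-100572296 (plus strand), chr11:99389315-99389614 (minus strand) and chr3:92083093-92083392 (minus strand). Capitals mark TATAAA, the usual core of a TATA box, and TGANTCA, the letters that AP-1 factors bind.
Krt79: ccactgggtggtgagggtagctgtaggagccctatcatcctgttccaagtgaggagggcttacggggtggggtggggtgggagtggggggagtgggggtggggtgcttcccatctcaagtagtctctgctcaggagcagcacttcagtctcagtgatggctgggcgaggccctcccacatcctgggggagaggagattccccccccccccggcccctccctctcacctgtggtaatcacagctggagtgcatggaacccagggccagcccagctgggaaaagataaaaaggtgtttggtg
Awat1: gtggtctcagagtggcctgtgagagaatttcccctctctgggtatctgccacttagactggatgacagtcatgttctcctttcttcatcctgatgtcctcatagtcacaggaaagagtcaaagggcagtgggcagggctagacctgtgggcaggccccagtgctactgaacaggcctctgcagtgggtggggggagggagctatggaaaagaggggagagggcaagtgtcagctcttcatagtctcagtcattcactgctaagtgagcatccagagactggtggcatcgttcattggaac
Krt10: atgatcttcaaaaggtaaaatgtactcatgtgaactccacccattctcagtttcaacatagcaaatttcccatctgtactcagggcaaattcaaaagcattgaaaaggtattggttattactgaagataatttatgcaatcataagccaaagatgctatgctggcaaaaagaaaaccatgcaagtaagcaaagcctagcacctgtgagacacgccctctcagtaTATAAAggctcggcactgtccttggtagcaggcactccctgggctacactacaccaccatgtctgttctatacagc
Lor: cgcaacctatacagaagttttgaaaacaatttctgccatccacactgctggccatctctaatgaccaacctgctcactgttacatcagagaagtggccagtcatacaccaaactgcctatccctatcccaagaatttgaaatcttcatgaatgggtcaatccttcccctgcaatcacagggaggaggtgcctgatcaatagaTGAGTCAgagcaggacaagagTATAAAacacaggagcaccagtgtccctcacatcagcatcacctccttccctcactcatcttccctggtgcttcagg

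TATAAA began 26 bases before the start of Krt10 and 27 bases before that of Lor, and TGANTCA lay 48 bases before the start of Lor. On that strand neither motif occurred in the windows shown for Krt79 and Awat1, which says only that these letters are not there. On the gene's own strand TATAAA was in 8.32% of all 32851 promoters, in 5 of 17 promoters of the suprabasal genes, in 6 of 39 of the cornified layer genes and in 0 of 10 of the sebaceous gland genes. TGANTCA, which reads the same on both strands and cannot overlap TATAAA, was in 7.81% of all promoters, in 4 of 17, in 7 of 39 and in 1 of 10 of the same lists. In the hair follicle, basal and epithelial adhesion lists TATAAA was in 17 of 32, 1 of 15 and 0 of 10 promoters on the gene's own strand. TGANTCA was in 1 of 32, 2 of 15 and 1 of 10 of them. The suprabasal and cornified lists hold genes of both patterns, so these shares do not bear on the patterns. Some genes have several promoters in the table, and a match is a description, not a site.

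All 10 Krt5-high tumours held the RNA of basal keratinocytes and of the sebaceous gland. Krt14 (chr11:100203162-100207548), the partner keratin of Krt5, read 6.26 CPM in CT24, 10.6 CPM in CT17, 12.7 CPM in CT25, 10.0 CPM in CT18, 17.3 CPM in CT23, 25.9 CPM in CT22, 23.4 CPM in CT26, 84.3 CPM in CT19, 122 CPM in CT15 and 281 CPM in CT21, the tumours being taken in the order of their Krt5. In the 16 Krt5-low tumours Krt14 ran from 0 to 2.01 CPM, with a median of 0.131 CPM, so the groups did not overlap. Col17a1, a collagen that anchors basal cells to the basement membrane, ran from 5.77 to 38.0 CPM against 0.914 to 2.59 CPM, and Krt15, a keratin of basal and follicle bulge cells, from 7.68 to 26.4 CPM against 0 to 3.15 CPM. These levels are tied to Krt5 by the way the groups were formed and are given as a description, with no test.

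Of the 8 sebaceous genes that passed a filter on low counts, 5 lay above every Krt5-low tumour in all 10 Krt5-high tumours. They were Krt79, Fa2h, Elovl3, Far2 and Awat1. Fabp5, Acsbg1 and Awat2 did not, and the rest of the list was not tested. In CT17, for instance, Fabp5 read 31.7 CPM and Acsbg1 5.43 CPM, below the 33 and 7.96 CPM of CT3, which was Krt5-low. Krt79 (chr15:101929332-101940324) read 5.77 CPM in CT24, 10.6 CPM in CT17, 10.3 CPM in CT25, 7.32 CPM in CT18, 18 CPM in CT23, 11.5 CPM in CT22, 27.7 CPM in CT26, 24.7 CPM in CT19, 43.0 CPM in CT15 and 58.4 CPM in CT21, and at most 0.656 CPM in a Krt5-low tumour. Fa2h, which hydroxylates fatty acids for skin lipids, had a lowest, median and highest level of 7.33, 15.9 and 36.1 CPM against 0, 0.154 and 0.884 CPM. Elovl3, an elongase of the sebaceous gland, ran from 1.66 to 16.8 CPM against 0 to 0.398 CPM. Far2, which makes the fatty alcohols of wax esters, ran from 15 to 51.7 CPM against 6.59 to 11.1 CPM, and Awat1, which joins them to fatty acids, from 0.880 to 5.69 CPM against 0 to 0.0884 CPM. Elovl4, an elongase of very long fatty acids kept here in the cornified list, lay likewise, at 17.3 to 122 CPM against 0 to 2.37 CPM.

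The suprabasal and cornified lists held both patterns. Dsp, Dmkn, Calml3, Ly6g6c and Aqp3 of the suprabasal list and Cdsn and Elovl4 of the cornified list lay above every Krt5-low tumour in all 10. Dsp, the desmosome protein desmoplakin, ran from 6.65 to 84.4 CPM against at most 1.65 CPM, and Dmkn, dermokine, from 2.38 to 59.3 CPM against 0.300 to 1.07 CPM. Krt1, Krt10 and Flg, in contrast, were raised in 4 of the 10, and Krt1 and this split of the tumours were chosen after the values were seen. Krt1 (chr15:101845426-101850794) read 13.0 CPM in CT22, 27.9 CPM in CT19, 39.9 CPM in CT15 and 49.2 CPM in CT21. It read 0.684 CPM in CT24 and 0 in CT17, CT25, CT18, CT23 and CT26, against at most 0.233 CPM in the Krt5-low tumours. Krt10, its partner, read 19.8, 45.2, 68.8 and 74.7 CPM in the same 4 tumours in that order. In the other 6 Krt10 lay between 1.79 and 3.62 CPM, across the Krt5-low range of 0.874 to 2.65 CPM. Flg read 7.68, 17.5, 18.2 and 76.2 CPM in the 4 and 0 to 0.237 CPM in the 6, where the Krt5-low tumours held 0 to 0.318 CPM. Of the 4 tumours CT22, CT19 and CT21 were CR and CT15 was PR.

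The 4 tumours with Krt1 above 10 CPM held more Krt5, with a median of 116 CPM (34.6 to 192 CPM). In the other 6 the median was 24.1 CPM (14.9 to 43.7 CPM), but the order was not strict. CT26 held 43.7 CPM of Krt5 against 34.6 CPM in CT22, and 27.7 CPM of Krt79 against 11.5 CPM, yet no count of Krt1 against 13.0 CPM. The stress keratins held both patterns too. Krt17 was in all 10, from 2.44 to 46.3 CPM against at most 0.573 CPM, and Krt6a also, from 2.44 to 183 CPM against at most 0.932 CPM. Krt16 reached 7.18, 34.6, 42.2 and 132 CPM in CT22, CT19, CT15 and CT21, and 0.0978 to 1.74 CPM in the other 6. Krt6b reached 7.09, 52.0, 72.6 and 225 CPM in the same 4 and 0.223 to 1.23 CPM in the other 6. Krt6a and Krt6b share 45.9% and 50.3% of their 31-base words, and Krt14 shares 17.6% of its words with Krt16 and 10.5% with Krt17, so how the counting split reads within these pairs is uncertain.

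**Figure D1:**
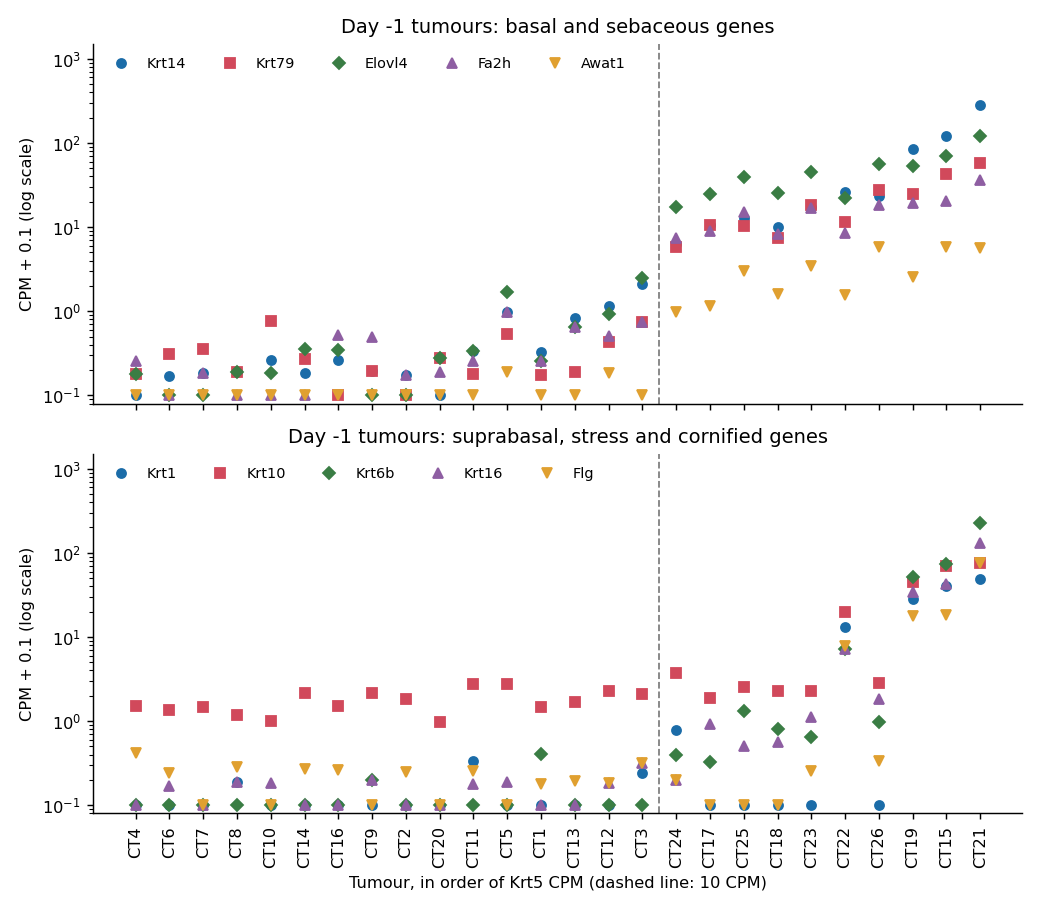
CPM plus 0.1 on a log scale for 10 skin genes in the 26 day -1 tumours, each point 1 tumour, ordered by Krt5 with a dashed line at 10 CPM. Krt14, Krt79, Elovl4, Fa2h and Awat1 (upper panel) lie above every Krt5-low tumour in all 10 tumours right of the line. Krt1 reaches at least 13.0 CPM in CT22, CT19, CT15 and CT21 only.

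Over whole lists, the summed level of the 15 sebaceous genes in the table ran from 72.6 to 308 CPM in the Krt5-high and from 41.1 to 55.1 CPM in the Krt5-low tumours. The 47 cornified genes summed to 106 to 500 CPM against 71.2 to 96.4 CPM, and the 4 stress keratins to 5.28 to 586 CPM against 0 to 1.72 CPM. The 24 suprabasal genes overlapped, at 134 to 657 CPM against 111 to 165 CPM, as did the 18 basal genes, at 894 to 1170 CPM against 816 to 1080 CPM. Much of the basal sum comes from genes that every tumour held, such as Dst, which links keratin to the basement membrane, at 376 to 585 CPM against 463 to 687 CPM, and the laminin receptor Itga6, at 194 to 248 CPM against 195 to 295 CPM. Likewise Jup, a junction protein, overlapped at 38.8 to 81.6 CPM against 44.4 to 92.0 CPM. Hair shaft genes were close to absent, with 15 of the 45 follicle genes in the table at no count in any of the 26 tumours, and the follicle sum overlapped at 8.31 to 22.9 CPM against 7.38 to 13.4 CPM.

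In the edgeR quasi-likelihood test of all 11072 genes that passed the filter on low counts, 505 genes were called higher in the Krt5-high tumours (4.56%) and 529 lower (4.78%) at a Benjamini-Hochberg adjusted p under 0.1. Of the members of the 7 skin lists 56 passed the filter, many of them because the Krt5-high tumours carried them. The choice of groups fixes their direction, so nothing is read from the calls among them. In 28 of the 11072 genes every Krt5-high tumour lay above every Krt5-low tumour (0.253%), and in 0 genes below (0%). Of these 28, 20 were in the skin lists, and the other 8 were Ces4a, Fam167a, Elovl7, Cd209c, Aldh3b2, Mgll, Coch and Fxyd3. The counts in either direction fell to 196 higher and 92 lower without CT22, CT19, CT15 and CT21.

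Outside the skin lists, the 10 genes with the smallest p among those higher were Ces4a, a carboxylesterase, Fam167a, the fatty acid elongase Elovl7, the lectin Cd209c, the cadherin Celsr2, the aldehyde dehydrogenase Aldh3b2, the ceramide synthase Cers4, the aldehyde oxidase Aox4, the monoacylglycerol lipase Mgll and the matrix protein Coch. Ces4a read 1.66, 1.93, 1.97, 2.36, 5.91, 1.35, 7.11, 5.32, 7.60 and 9.34 CPM in the 10 tumours in order of Krt5, and at most 0.354 CPM in the Krt5-low tumours, which held 14 counts of it in all. Ces4a therefore passed the filter through the Krt5-high tumours, which fixes its direction as for the skin lists. Others of the 10 with low levels in the Krt5-low tumours, such as Elovl7, may have passed in the same way. For all 10 genes a call says only that the level goes with Krt5, by which the groups were formed. Elovl7 ran from 1.86 to 16.4 CPM against 0.159 to 1.33 CPM. Cers4 ran from 11.4 to 30.9 CPM against 5.14 to 11.6 CPM and Mgll from 21.2 to 53.3 CPM against 13.1 to 21.2 CPM. Cd209c differed in kind, since the Krt5-low tumours held much of it, at 25.2 to 42.6 CPM with a median of 32.1 CPM against 43.5 to 65.4 CPM with a median of 57.3 CPM (log2 fold change 0.79 ± 0.08 SE, edgeR adjusted p = 1.8e-07). With the title number as a covariate Cd209c was not called.

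The genes lower in the Krt5-high tumours were lower by little. Outside the skin lists the median size of the log2 fold change of called genes, in either direction, was 0.19. Of the 505 higher, 63 were higher by more than 1 on the log2 scale. These include skin list members, whose direction the choice of groups fixes, so the 2 directions are not compared. Of the 529 lower, 5 were lower by more than that. The 10 with the smallest p were Ftl1, the light chain of ferritin, Oaz2, an antizyme, Egfl7, a protein secreted by endothelium, the metalloprotease Mmp23, the microfibril gene Mfap5, the neonatal Fc receptor Fcgrt, Gm13632, the clathrin adaptor Ap2s1, the collagen Col8a1 and the endothelial receptor Adgrf5. Ftl1 ran from 1470 to 1760 CPM against 1710 to 2000 CPM, with medians of 1580 and 1850 CPM (log2 fold change -0.22 ± 0.03 SE, edgeR adjusted p = 3.7e-05). Egfl7 ran from 14 to 20.1 CPM against 17.9 to 26.4 CPM (log2 fold change -0.38 ± 0.06 SE, edgeR adjusted p = 0.00075). The groups overlapped in both genes, and neither was called with the title number as a covariate. That fit tells Krt5 from the title number only through CT16 and CT20. A missing call there does not show that a difference is absent.

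With the title number above 14 as a covariate, 18 genes were called higher (0.163%) and 0 lower, with 532 genes at an unadjusted p under 0.05 in edgeR's test, against 2285 without the covariate. Of the 18, 17 were also called without the covariate, and 13 were skin list members, Krt79, Fa2h, Elovl4, Elovl3, Awat1, Far2, Ly6g6c, Col17a1, Calml3, Krt17, Dsp, Dsg3 and Dsc3, whose levels are tied to Krt5 by the choice of groups. Of the 13, 5 are on the sebaceous list, and the desmosome genes Dsp, Dsg3 and Dsc3 are also among them. The other 5 were Ces4a, which passed the filter through the Krt5-high tumours, Fam167a, Elovl6, Idi1 and Dhcr7. Idi1 and Dhcr7, enzymes of cholesterol synthesis, and Elovl6, an elongase of common fatty acids, are named here after their values were seen. Idi1 lay at 240 to 338 CPM in the Krt5-high tumours and at 183 and 185 CPM in CT16 and CT20, but at 194 to 308 CPM in the 14 tumours numbered up to 14 (log2 fold change 0.60 ± 0.13 SE with the covariate, edgeR adjusted p = 0.065, and 0.18 ± 0.08 SE without it, adjusted p = 0.17). Its call therefore rests on 2 Krt5-low tumours. With tumours numbered above 14 alone, 10 against 2, 12 genes were called higher and 0 lower, with 891 at an unadjusted p under 0.05. Among them were Krt15, Fa2h, Elovl4, Elovl6, Fdft1, Idi1, Insig1, Fads1, Cyp17a1, Gm9944 and Gm5538.

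The 529 genes lower and the 467 genes higher outside the skin lists were called with CT16 and CT20 counted as Krt5-low. The mean log2 CPM of these 2 tumours lay nearer to the Krt5-high mean than to that of the tumours numbered up to 14 in 45.7% and 47.3% of these genes. The calls favour genes in which the 2 lie away from the Krt5-high tumours. These shares therefore have no neutral value to be set against, and nothing is read from them. Ftl1 read 1800 CPM in both, and Cd209c 34.2 and 41.3 CPM. Both tumours belong to the Krt5-low group, so they lie within its range by definition. Krt5 and the title number can be told apart only through these 2 tumours.

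**Figure D2:**
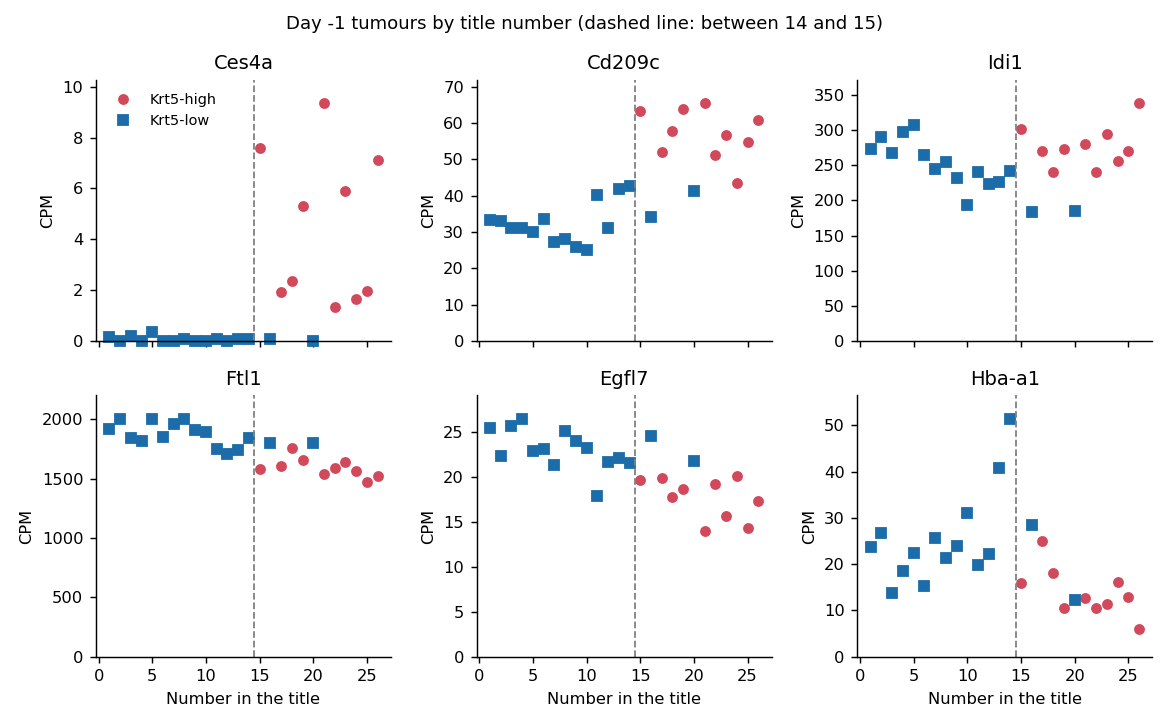
CPM of 6 genes in the 26 day -1 tumours against the number in the title, each point 1 tumour and the dashed line between 14 and 15. Ces4a is at most 0.354 CPM in the Krt5-low tumours on either side of the line, whereas Idi1 and Hba-a1 also vary among the Krt5-low tumours.

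Among lists of other cells, the endothelium had the largest share of genes lower, 8 of 14 against 4.78% of all genes, with 1 of 14 higher. Egfl7, the growth factor receptor Kdr (33.4 to 41.3 CPM against 38.4 to 48.9 CPM) and Mmrn2 (9.93 to 14.1 CPM against 12.2 to 17.0 CPM) were among the 8, and the lymphatic chemokine Ccl21a was the 1 higher (1.56 to 5.97 CPM against 0.153 to 2.65 CPM, log2 fold change 1.52 ± 0.30 SE, edgeR adjusted p = 0.0033). The list's median log2 fold change was -0.24, against -0.01 for all genes tested, and its summed level was 261 to 332 CPM against 272 to 368 CPM. With the title number as a covariate 0 of 14 were called, with a median of -0.22. Red blood cell genes were lower in 2 of 5 tested, with Hba-a1 at 6.01 to 25 CPM against 12.2 to 51.3 CPM (log2 fold change -0.82 ± 0.21 SE, edgeR adjusted p = 0.023) and 0 called with the covariate.

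Cd207, the langerin gene of Langerhans cells, ran from 2.75 to 6.73 CPM against 0.674 to 3.66 CPM (log2 fold change 1.1 ± 0.17 SE, edgeR adjusted p = 0.00022). With the title number as a covariate it was not called (log2 fold change 0.93 ± 0.36 SE, edgeR adjusted p = 0.94). Of the 5 genes of its list 2 were called higher without the covariate, against 4.56% of all genes, while the list summed to 296 to 350 CPM against 311 to 373 CPM. The mast cell protease Mcpt4 and the receptor Mrgprb1 were the 2 of 10 mast cell genes called higher, with a list median of 0.42. Of the melanocyte genes 1 of 4 was higher, and of the dermal fibroblast genes 1 of 26 was higher and 1 lower. Fat cell genes had 1 of 12 higher, and skeletal muscle, which lies under the skin, 0 of 28 in either direction, with sums of 376 to 1230 CPM against 307 to 1910 CPM.

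With the title number as a covariate no gene of the 25 lists other than the skin lists was called in either direction. Without it, the immune lists gave no call among 16 T cell genes, 12 cytotoxic and natural killer cell genes, 10 genes of MHC class II, 18 genes of the interferon gamma response or 7 neutrophil genes, and the first 3 lists had medians of 0.09, 0.10 and 0.04. Of 17 genes of macrophages and monocytes 1 was called higher and 2 lower, of 15 dendritic cell genes 1 lower, of 8 B cell genes 1 higher and of 9 genes of the IL-1 family and epidermal cytokines 1 higher. The interferon genes had a median of 0.36 and were positive in 18 of 18, with sums of 1050 to 7310 CPM against 795 to 5890 CPM, so that the groups overlapped widely. Irgm1, the one with the smallest p, read 145 to 723 CPM against 129 to 475 CPM (log2 fold change 0.40 ± 0.25 SE, edgeR adjusted p = 0.38). Genes of the simple epithelium and mesothelium list gave 0 of 6 calls, and Krt8, a keratin of simple epithelium, read 6.45 to 20.1 CPM against 3.20 to 28.3 CPM. Mitochondrial RNA had 4 of 13 genes called higher, with a list median of 0.07, and hypoxia and glycolysis genes 4 of 15, with a median of 0.15, against 4.56% of all genes, and 0 of either list were called with the covariate. The part of such differences in the other results was not tested.

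**Figure D3:**
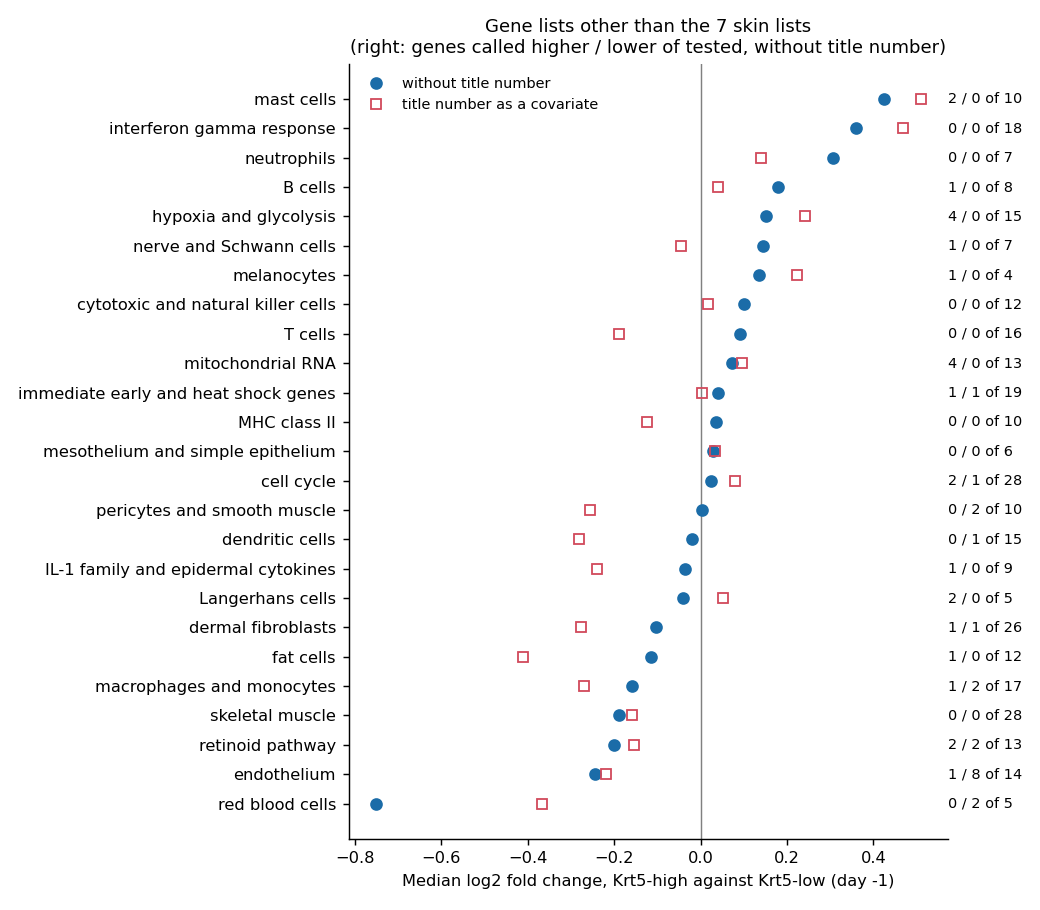
Median log2 fold change of 25 gene lists other than the skin lists, Krt5-high against Krt5-low on day -1, without the title number (filled points) and with it as a covariate (open squares). Numbers at the right give genes called higher and lower of those tested without the covariate, and the endothelium stands out with 8 of 14 lower.

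Response was then compared within each Krt5 group, a label that the choice of groups did not use. Among the 16 Krt5-low tumours 1 of 11817 genes was called between CR and PR by edgeR (0.00846%), with 1587 at an unadjusted p under 0.05. It was Hdac9, a histone deacetylase, at 44.3 CPM ± 4.19 (SD, n = 8) in CR and 56.3 CPM ± 4.12 (SD, n = 8) in PR (log2 fold change -0.35 ± 0.06 SE, adjusted p = 0.068). Among the 10 Krt5-high tumours 0 genes were called (0%), and 642 had an unadjusted p under 0.05, and Hdac9 read 42.9 CPM ± 1.59 (SD, n = 5) and 51.6 CPM ± 5.35 (SD, n = 5). The difference of the 2 contrasts gave 0 calls (0%) and 299 genes with an unadjusted p under 0.05. In these 3 comparisons the number of calls was 64, 1 and 2 with DESeq2, and 1230, 0 and 0 with limma-voom. With the title number as a covariate edgeR called 1, 0 and 0, with 1674, 664 and 320 at an unadjusted p under 0.05.

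Several lists had medians of the same sign in both groups in the contrast of CR with PR, with no gene of theirs called. MHC class II genes had a median log2 fold change of 0.69 among Krt5-low and 0.54 among Krt5-high tumours, each with 10 of 10 genes higher in CR. T cell genes had medians of 0.62 and 0.50, each with 16 of 16 genes higher in CR. Skeletal muscle genes had medians of 0.71 and 0.24, with 28 of 28 and 24 of 28 higher in CR. The medians of all genes tested were 0.00 in both. None of these genes was called for a difference between the Krt5 groups, and the difference of the medians was not tested.

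The 20 tumours taken after CY were grouped by the same Krt5 level. On day 3, 1 of 10 was Krt5-high, and on day 7, 5 of 10. They were CT7_1, CT7_9, CT7_6, CT7_10, CT7_3 and CT3_2 in the order of Krt5, of which CT7_6 and CT7_3 were CR and the other 4 PR. Krt5-low were 8 CR and 6 PR tumours. Krt79 read 1.91, 3.75, 7.93, 15.9, 51.0 and 11.6 CPM in the 6, and at most 1.80 CPM in the 14 Krt5-low tumours. Fa2h read 1.16, 1.31, 3.71, 2.07, 12.7 and 5.79 CPM against at most 0.561 CPM. Krt14 read 3.30, 5.01, 10.6, 42.6, 84.4 and 263 CPM against at most 1.52 CPM. Since Krt5 formed these groups as well, the skin genes are again a description, with no test.

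Krt1 again parted the tumours, at 89.8 CPM in CT3_2 and 32.9 CPM in CT7_3, 0.710 CPM in CT7_10 and 0 in CT7_1, CT7_9 and CT7_6. Krt10 read 141 and 76.0 CPM in the first 2 and 1.27 to 2.47 CPM in the other 4, within the range of the Krt5-low tumours, which reached 16.9 CPM. CT7_10 held stress keratins without suprabasal ones, with 16.9 CPM of Krt16 and 12.9 CPM of Krt6b beside 1.36 CPM of Krt10. CT3_5 did the reverse: it was Krt5-low at 2.17 CPM, with 0.514 CPM of Krt14, and held 16.9 CPM of Krt10, 17.4 CPM of Krt77 and 3.32 CPM of Krt1.

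**Figure D4:**
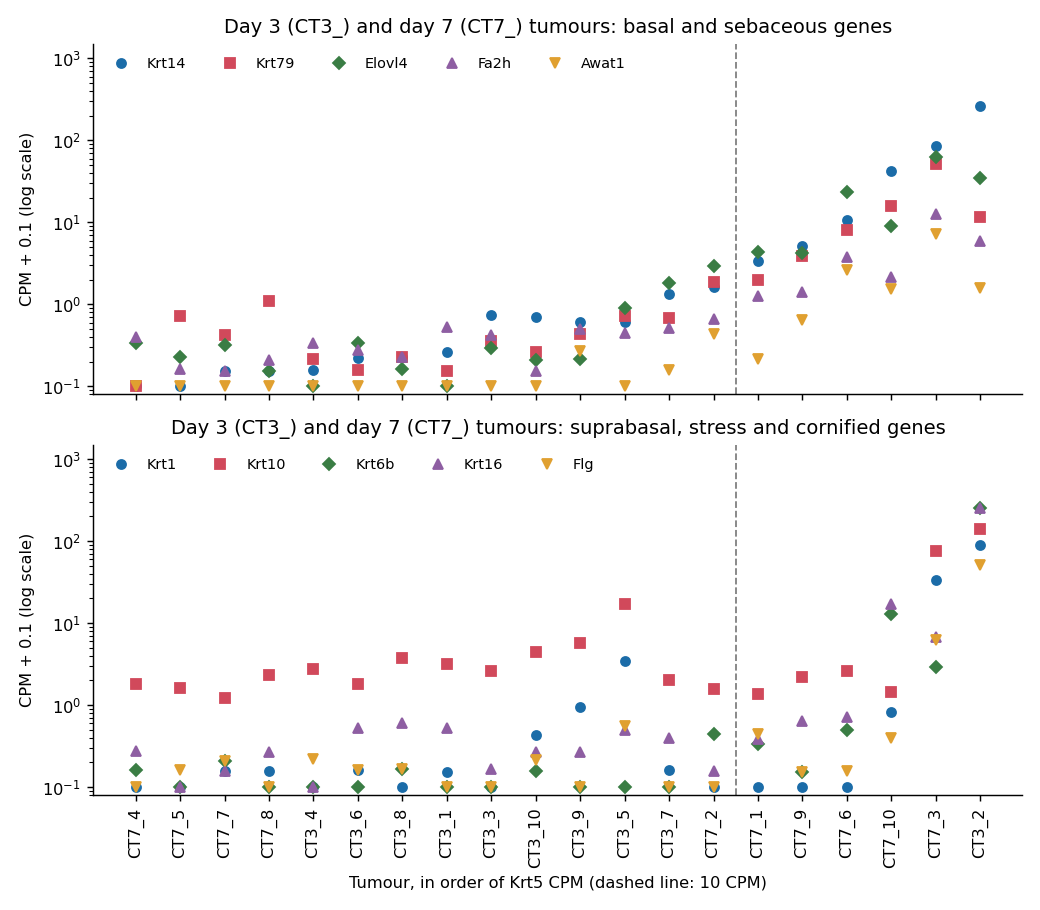
CPM plus 0.1 on a log scale for the same 10 skin genes in the 20 tumours taken on day 3 and day 7, each point 1 tumour, ordered by Krt5 with a dashed line at 10 CPM. Krt14 and Fa2h lie above every Krt5-low tumour in all 6 right of the line, while Krt1 exceeds 10 CPM in CT7_3 and CT3_2 only.

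In edgeR's test with day as a covariate 206 of 14853 genes were higher in the later Krt5-high tumours (1.39%) and 12 lower (0.0808%). Skin list members made up 87 of the 206, which the choice of groups favours, and nothing is read from it. Of these members 135 passed the filter, and 66 passed it without CT3_2, the only Krt5-high tumour of its day. Without CT3_2, 20 genes were higher and 1 lower. Without CT3_2 and CT7_3, 8 genes were higher, Fa2h, Cst6, Krt17, Krt14, Fcgbp, Aqp3, C130026L21Rik and Col17a1, and Olfr31 was lower. Among genes outside the skin lists the smallest p were those of Klk13, Il1f5, 2310046K23Rik, Gsdmc and Klk6, and none of them was called without CT3_2. Klk13, a protease, read 3.42 CPM in CT3_2 and at most 0.355 CPM in the other 5 Krt5-high tumours. The other genes named read 13.2, 26.7, 5.79 and 7.79 CPM in CT3_2 and 2.83, 9.46, 2.93 and 2.06 CPM in CT7_3. The filter was set by day and Krt5 group, in which CT3_2 stood alone, so nothing is read from this ranking.

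Of 11003 genes tested at both times, 499 were higher on day -1 and 61 later, and 42 were higher in both, which is 8.42% of the first and 68.9% of the second. Of the 42, 27 were skin list members, tied to Krt5 by the grouping at both times. No gene was lower in both, out of 528 and 12. Endothelial genes, lower on day -1, were called lower in 0 of 14 later and higher in 2, and without CT3_2 higher in 0 of 14. The difference between the times was not tested. T cell, MHC class II, interferon gamma and skeletal muscle genes gave 0 calls later in either direction.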

How the data were processed

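RNA of 46 AB1-HA tumours was sequenced in single-end reads. The deposited counts per gene were made by the authors with kallisto on GRCm38.p6 and are given by symbol. The table holds 46011 complete entries and ends within a gene at Pax7, so symbols that follow were not analysed here, and 13 names had become dates. Results on some genes are not reported here. Column sums were 10227681 to 14218987 on day -1 and 15412744 to 19446596 later. By the paper's methods 1 of the 2 tumours of a mouse was removed for sequencing. The groups, the lists and the rule for named genes were chosen with earlier results of these data known.

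Genes were filtered with filterByExpr, scaled by TMM and tested with edgeR 4.0.16 (quasi-likelihood, adjusted p under 0.1) on all genes but Krt5, with day as a covariate after CY and a model of Krt5 group by response for CR against PR. Alternatives were DESeq2 1.42.0, limma 3.58.1 (voom), other thresholds, covariates and left-out tumours. Of the skin lists, up to 6 genes by mean CPM were to be named, of other lists up to 4 by p, and outside the skin lists 10 in each direction (5 later). On simulated counts for day -1 (11040 genes) 92.5% of 2-fold and 83.6% of 1.5-fold changes were recovered. Of the 204 calls there, 21 were unchanged genes. For the later tumours (12582 genes) 92.5% and 46.3% were recovered, and 18 of 175 calls were unchanged genes. Smaller changes and an effect of the title number were not simulated. A fitted fold of a gene near 0 counts in 1 group depends on the prior count of 2.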

Additional observations from a re-analysis of the deposited data

Results flagged for a closer look

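A tumour was set apart where its gap to the nearest other tumour was larger, as a share of the group's range, than Dixon's 95% critical value, a test that chance passes in about 1 of 20 groups. Of 118 combinations of gene and Krt5-high group tested, 33 passed. The genes share their tumours, so these are not separate tests. On day -1 all 15 that passed set CT21 apart from the other 9 Krt5-high tumours. CT21 also held the most Krt5 (192 CPM), to which the skin genes are tied by the choice of groups. CT21 was the highest in Krt14 (281 CPM), Elovl4 (122 CPM), Flg (76.2 CPM), Krt6b (225 CPM), Krt6a (183 CPM), Krt16 (132 CPM), Dsc2 (2.5 CPM), Fabp5 (108 CPM), Far2 (51.7 CPM), Fa2h (36.1 CPM), Elovl3 (16.8 CPM), Aldh3b2 (7.6 CPM), Cers4 (30.9 CPM) and Mgll (53.3 CPM), and the lowest in Dst (376 CPM).

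After CY, 18 passed. CT3_2, the day 3 tumour, was the highest of the 6 in Itga6 (114 CPM), Itga3 (33.2 CPM), Krt14 (263 CPM), Itgb4 (54 CPM), Jup (110 CPM), Lgals7 (243 CPM), Flg (51.3 CPM), Krt6b (255 CPM), Krt6a (167 CPM), Krt16 (251 CPM), Lgr6 (4.66 CPM), Klf5 (42.1 CPM), Egfl7 (59.9 CPM), Oaz2 (257 CPM) and Mmp23 (78.8 CPM). CT7_3 was the highest in Krt79 (51 CPM), Ces4a (8.54 CPM) and Cers4 (35.5 CPM). CT3_2 is the only Krt5-high tumour of day 3, so tumour and day cannot be told apart in its values. It also held the most Krt5 of the 6 (192 CPM).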

How the results depend on the processing

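Both directions of the day -1 comparison shrank most with the title number. Genes higher numbered 18 with the title covariate and 12 with titles above 14 only, and genes lower 0 and 0. Without CT15, CT19, CT21 and CT22, a choice made after seeing the data like the title subset, 196 were higher and 92 lower. An adjusted p under 0.05 left 297 and 262, Krt14 in place of Krt5 271 and 276, and no filter 262 lower. Leaving out 1 tumour at a time gave 353 to 628 higher and 323 to 554 lower. Other thresholds, DESeq2, limma-voom, scaling, response, muscle and continuous Krt5 kept counts within 1.5 times.

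After CY, genes higher numbered 44 with the filter on the 2 Krt5 groups, 8 without CT3_2 and CT7_3 (both added after seeing the data), and 20 to 257 with 1 tumour left out, 20 being without CT3_2. The 12 lower became 1 at an adjusted p under 0.05, 32 by DESeq2, 5 without the filter, 5 at a threshold of 5 CPM, 0 with the filter on the 2 groups, 1 without CT3_2 and CT7_3, and 1 to 32 with 1 tumour left out (1 without CT3_2).

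Between CR and PR the Krt5-low count became 0 at an adjusted p under 0.05 and without the filter, 64 by DESeq2 and 1230 by limma-voom, the Krt5-high count 1 by DESeq2 and the difference 2 by DESeq2. At 20 CPM the difference in total counts turned to 297988 counts more in the Krt5-high tumours, with p = 0.523. Cd79a turned to -0.0026 on the log2 scale with the title covariate and to -1.19e-05 with titles above 14 only, and Cenpa to 0.00089 with titles above 14 only. The cause of these shifts was not tested.

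No paired analysis was possible because the title numbers are not shared between the groups compared. Depth limits genes near 1 CPM, where a tumour holds about 10 to 14 counts.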
